A study of Mus musculus with 2 samples.

Results

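The neutrophil chemokine genes Cxcl1, Cxcl2, Cxcl3, Cxcl5 and Cxcl15, the granulocyte growth factor gene Csf3 and the receptor genes Cxcr2 and Csf3r were followed across the cell types of the mouse lung. They were chosen by symbol: 8 of the 31053 gene rows that both libraries list, 6 of them coding for secreted ligands and 2 for receptors. The members form a functional set. The rule that picks them uses no measured value, but they were chosen with earlier results of these data known. The source was whole lung, dissociated at 5 weeks of age, and each cell's RNA was sequenced in droplets with a 3' chemistry, which counts each captured transcript once through its unique molecular identifier (UMI). One library came from Lkb1f/f mice, which carry floxed alleles of Lkb1 (Stk11), the gene of a tumour suppressor kinase. The other came from Nkx2.1 Cre;Lkb1f/f mice, which carry the same floxed alleles and a Cre recombinase driven from Nkx2.1, a transcription factor gene of the lung epithelium. Both groups therefore share the floxed alleles and differ in the Cre. They are called control and Cre here.

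Each library pooled 3 mice, and there was 1 library per genotype. No value below has a replicate check, no test between genotypes was possible, and genotype, mouse pool and library preparation cannot be told apart. Intervals in brackets are exact 95% intervals and cover counting error only. After filtering, 12481 control and 14689 Cre cells remained, with medians of 3619 and 3253 UMIs per cell. Clusters were named from marker genes, and 25 named classes held at least 50 cells in both libraries. The suffix "-like" marks a class named in this way. The neutrophil-like class expressed all 11 of its markers that were listed, and their summed level was 186526 counts per 1000000 UMIs of the class (CPM) in control and 98375 in Cre. The targeted gene Stk11 stood at 49.1 CPM (45.5 to 53.0) in control AT2-like cells and 30.2 CPM (27.3 to 33.2) in Cre AT2-like cells. In club-like cells, also epithelial, it stood at 15.1 CPM (12.3 to 18.4) and 16.6 CPM (13.4 to 20.3), and in B cell-like cells at 56.1 and 68.1 CPM. The labels do not say which exons are floxed, and a 3' tag outside the deleted exons would not report the deletion.

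The chemokines encoded by Cxcl1, Cxcl2, Cxcl3 and Cxcl5 draw neutrophils out of the blood by engaging the receptor CXCR2, encoded by Cxcr2, on the neutrophil surface. Cxcl1, Cxcl2 and Cxcl3 are known as rapidly induced genes of macrophages, stroma and epithelium, Cxcl5 is known as an inducible product of the lung epithelium, and Cxcl15 (lungkine) is a constitutive product of the airway and alveolar epithelium. Csf3 encodes G-CSF, the growth factor that drives neutrophil production and release, and Csf3r encodes its receptor.

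The 5 CXC ligand genes lie on the plus strand of mouse chromosome 5 between 90759360 and 90905938 (GRCm38), in the order Cxcl5, Cxcl3, Cxcl15, Cxcl1 and Cxcl2. Ppbp and Pf4, which code for platelet chemokines, lie between Cxcl5 and Cxcl3. Cxcl5 spans 90759360 to 90761624, Cxcl3 90786103 to 90789600, Cxcl15 90794534 to 90803067, Cxcl1 90891241 to 90893115 and Cxcl2 90903871 to 90905938. The remaining members are on other chromosomes: Cxcr2 on chromosome 1 (74153989 to 74161246), Csf3 on chromosome 11 (98701263 to 98703629) and Csf3r on chromosome 4 (126024550 to 126044440), all on the plus strand and all annotated as protein coding.

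The 100 bases before the RefSeq start of 4 ligand genes are shown because Cxcl1, Cxcl2 and Cxcl3 are known as inducible and Cxcl15 as constitutive. This grouping is prior knowledge and was not drawn from the values below. RefSeq promoter sequences (GRCm38.p6) were held for 6 of the 8 members. RefSeq starts differ from the gene starts given above, and the Cxcl1 and Cxcl2 windows run past the latter. The windows, all plus strand, are chr5:90891145-90891244 for Cxcl1, chr5:90903799-90903898 for Cxcl2, chr5:90786001-90786100 for Cxcl3 and chr5:90794434-90794533 for Cxcl15. Capitals mark the runs of at least 8 bases that the upstream windows of Cxcl1, Cxcl2 and Cxcl3 have in common.
Cxcl1: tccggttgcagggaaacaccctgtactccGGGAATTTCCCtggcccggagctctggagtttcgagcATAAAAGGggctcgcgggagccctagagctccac
Cxcl2: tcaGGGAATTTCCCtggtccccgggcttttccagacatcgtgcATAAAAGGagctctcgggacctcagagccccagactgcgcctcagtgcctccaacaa
Cxcl3: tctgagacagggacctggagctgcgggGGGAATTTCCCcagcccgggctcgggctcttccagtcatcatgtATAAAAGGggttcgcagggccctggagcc
Cxcl15: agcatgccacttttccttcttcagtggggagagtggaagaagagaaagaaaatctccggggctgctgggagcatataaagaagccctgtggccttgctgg
The longer run, GGGAATTTCCC, matches the consensus for NF-kappaB, a transcription factor activated by inflammatory signals. It begins 71 bases before the RefSeq start of Cxcl1, 97 before that of Cxcl2 and 73 before that of Cxcl3. Searched on both strands in the 250 bases upstream of every entry, it was present in 14 of 32851 promoters (0.0426%). The shorter run, ATAAAAGG, resembles a TATA box, begins 34, 57 and 29 bases before the 3 starts, and was present in 507 promoters (1.54%). Neither run was found in the upstream windows of Cxcl15, Cxcr2 or Csf3r. The Cxcl15 sequence shown does hold tataaag, which also resembles a TATA box. A match is a description of letters and does not show that a factor binds there.

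**Figure D1:**
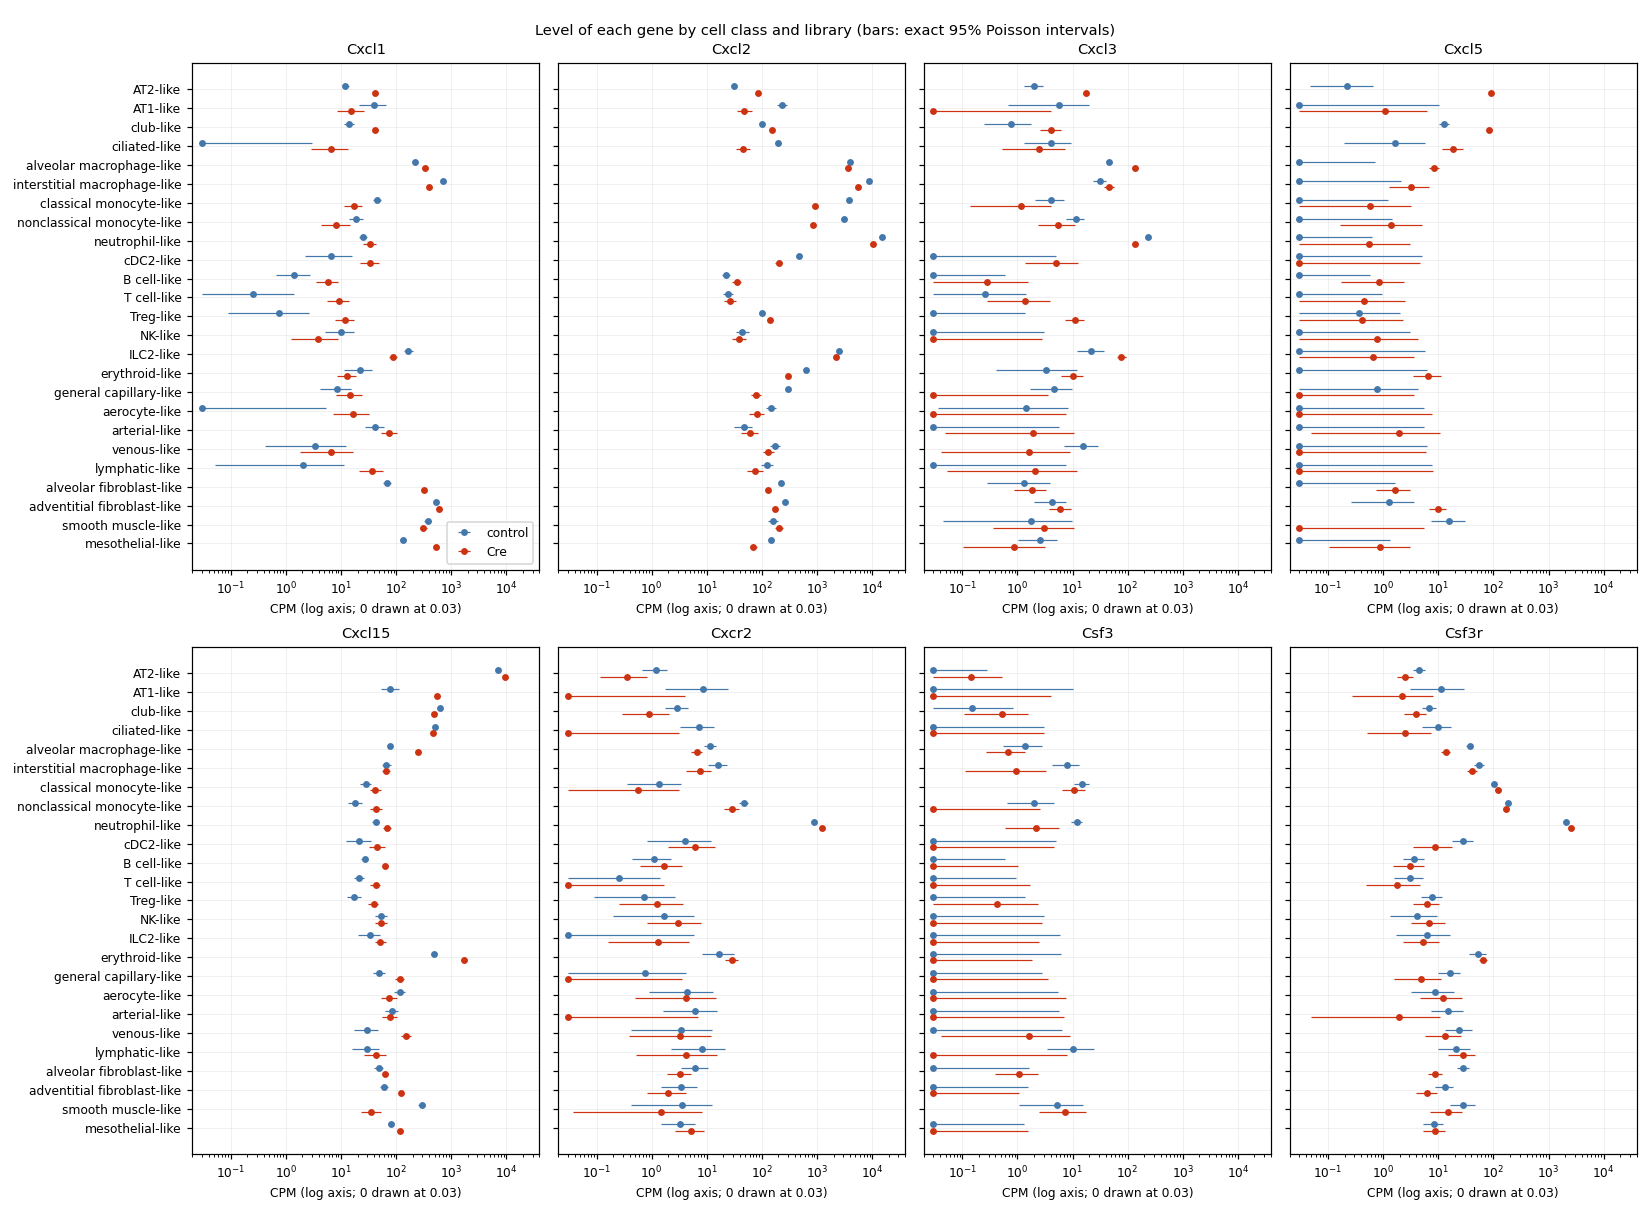
Level of each of the 8 genes (CPM, log axis, 0 drawn at the bottom) in 25 cell classes, control in blue and Cre in red, with exact 95% Poisson bars. Cxcl2 reaches its highest level in neutrophil-like cells in both libraries, Cxcl15 in AT2-like cells, and Cxcl5 is high in AT2-like and club-like cells of the Cre library.

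Summed over all cells, Cxcl2 and Cxcl15 were the abundant members. Cxcl2 gave 149637 UMIs in control and 84637 in Cre, or 2162 and 1135 CPM. Cxcl15 gave 107856 and 146022 UMIs, or 1558 and 1958 CPM. The other ligands were 1 or more orders of magnitude scarcer than Cxcl15 in both libraries. Cxcl1 stood at 75.7 CPM in control and 155 in Cre. Cxcl3 stood at 25.7 and 32.4 CPM. Cxcl5 had 103 UMIs in control and 1923 in Cre, or 1.49 and 25.8 CPM. So Cxcl1, Cxcl3, Cxcl5 and Cxcl15 were higher in the Cre library as a whole, and Cxcl2 was lower. Csf3 was rare in both, with 148 UMIs in control and 54 in Cre. Cxcr2 (78.7 and 33.9 CPM) and Csf3r (194 and 77.2 CPM) were lower in the Cre library, in which neutrophil-like cells were 7.53% of cells (7.11 to 7.97) against 15.5% (14.9 to 16.2) in control. Several markers of that class differed between the libraries: S100a8 stood at 67084 CPM in control and 33805 in Cre, and S100a9 at 92945 and 47379. The neutrophil-like shares are therefore a description of the class as gated.

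The cellular sources were compared as the share of each gene's UMIs that epithelial and myeloid classes held. Cxcl2, Cxcl3, Cxcr2, Csf3r and Csf3 came mostly from myeloid cells in both libraries, Cxcl5 and Cxcl15 mostly from epithelium, and Cxcl1 from myeloid and mesenchymal cells. Epithelial classes gave 5.14% of Cxcl1 UMIs in control (4.55 to 5.77) and 7.22% in Cre (6.75 to 7.70). Myeloid classes gave 52.8% and 43.3%, and mesenchymal classes 38.5% and 46.7%. Thus most Cxcl1 in either library was not epithelial. For Cxcl2 the epithelial share was 0.95% in control and 2.52% in Cre, against myeloid shares of 95.8% and 89.7%. For Cxcl3 the epithelial share was 2.19% (1.57 to 2.99) in control and 11.1% (9.87 to 12.4) in Cre, and the myeloid share 94.8% and 79.9%. Cxcl3 thus had the widest gap between libraries in epithelial share among these 3 ligands. For Cxcl5 the epithelial share was 86.4% (78.2 to 92.4) in control and 91.0% (89.6 to 92.2) in Cre. Cxcl15 was 94.2% and 90.8% epithelial. Epithelial cells made up 14.9% of control and 16.4% of Cre cells and held 31.3% and 29.1% of all UMIs, so the shares of UMIs sampled from the epithelium were close in the 2 libraries. The shares lean on the depth and number of cells of each class. As a mean of CPM over classes, which weights each class equally, the epithelial shares were 2.64% and 3.30% for Cxcl1, 3.15% and 4.0% for Cxcl3, and 1.40% and 1.20% for Cxcl2, which turns the order of the libraries for Cxcl2. For Cxcl5 they were 44.5% and 83.5%, so that the epithelium no longer held most Cxcl5 in control. That control value leans on smooth muscle-like cells, at 15.9 CPM from 9 UMIs in a class of 151 cells.

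**Figure D2:**
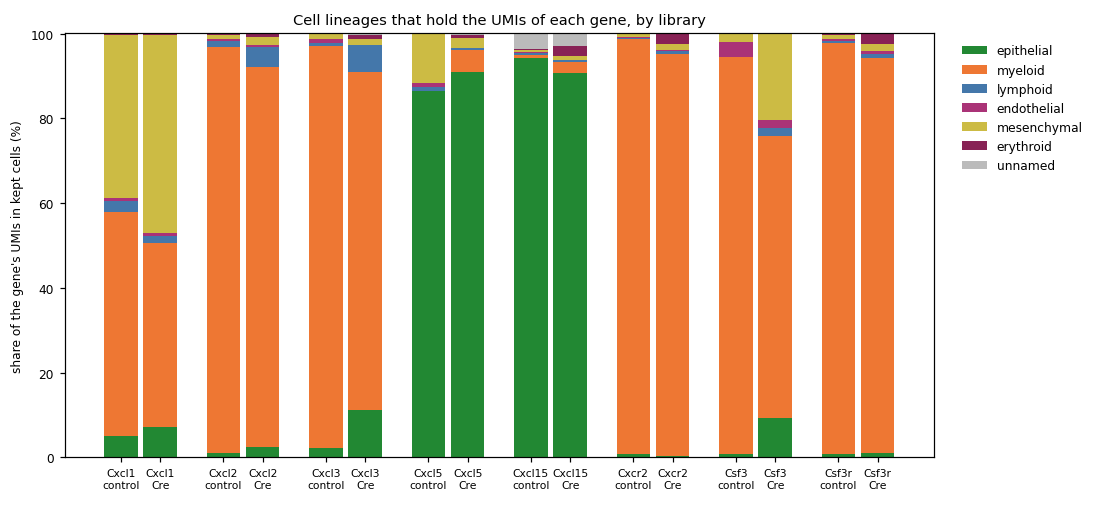
Share of each gene's UMIs (percent, stacked) by cell lineage in the control and the Cre library. Cxcl2, Cxcl3 and both receptors are mostly myeloid, Cxcl5 and Cxcl15 mostly epithelial, and the epithelial part of Cxcl3 is 2.19% in control and 11.1% in Cre.

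On the level scale, the epithelium pooled over its classes held 12.4 CPM of Cxcl1 in control and 38.5 in Cre. Its Cxcl2 stood at 65.7 and 98.4 CPM, its Cxcl3 at 1.80 and 12.3 CPM and its Cxcl5 at 4.11 and 80.6 CPM. Summed over the epithelium, these 4 ligands were therefore higher in Cre, but not in every class. AT1-like and ciliated-like cells had less Cxcl2 in Cre, and AT1-like cells less Cxcl1 (39.3 and 15.4 CPM). Neutrophil markers in both of these classes were also lower in Cre, with values given below. The pooled myeloid classes held far more Cxcl2, 7301 CPM in control and 3269.7 in Cre. Myeloid Cxcl3 was alike in the libraries, 85.8 and 83.1 CPM. Myeloid Cxcl1 stood at 141 and 216 CPM and mesenchymal Cxcl1 at 253 and 450.2 CPM.

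The AT2-like class, alveolar cells that secrete surfactant, numbered 1428 in control and 1727 in Cre. Of 7 members measured there, with at least 20 UMIs over both libraries, 4 (Cxcl1, Cxcl2, Cxcl3, Cxcl5) were at least 2-fold higher in Cre and 1 (Cxcr2) at least 2-fold lower. Among all genes measured in that class, 7.53% passed 2-fold towards Cre and 2.63% passed it towards control. Cxcl5 had 3 UMIs in control AT2-like cells and 1246 in Cre, which is 0.223 against 89.9 CPM and a ratio of 403 (137 to 1955). The ratio rests on the 3 control UMIs. Cxcl3 stood at 2.01 CPM in control and 17.5 in Cre, an 8.69-fold difference (5.82 to 13.5). Cxcl1 stood at 12.1 and 41.4 CPM, 3.43-fold higher in Cre (2.88 to 4.11). Cxcl2 stood at 31.5 and 84.8 CPM, 2.69-fold higher (2.41 to 3.02), but with cells called as doublets kept the ratio was 0.943 (0.888 to 1.0). Cxcl2 of AT2-like cells therefore has no direction that holds under both treatments of doublets. The neutrophil markers in these cells (581 and 454 CPM) correspond, at the ratio of Cxcl2 to those markers in neutrophil-like cells, to 46.6 CPM of Cxcl2 in control and 48.6 in Cre, and to 0.727 and 0.634 CPM of Cxcl3. For Csf3r they correspond to 6.38 and 11.6 CPM, above its measured 4.47 and 2.53. For Cxcr2 they correspond to 2.73 and 5.63 CPM, above its measured 1.19 and 0.361. Cxcl15 was by far the most abundant member in this class, at 7211 CPM in control and 9293 in Cre, a ratio of 1.29 (1.28 to 1.30). Cxcr2 had 16 UMIs in control and 5 in Cre, of which the main cluster (1209 and 1605 cells) held 3 and 0. A shallow cluster held 1 and 0. The others lay in a cluster of 6 control and 6 Cre cells, where neutrophil markers were the highest of another lineage. The Cxcr2 difference thus rests on those few cells. The main cluster held 261 of 423 control and 1061 of 1175 Cre UMIs of Cxcl2, or 20.1 and 77.7 CPM. AT2-like cells were sequenced to medians of 10195 UMIs in control and 7855 in Cre.

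Thinned to 1000 UMIs per cell, 1330 control and 1656 Cre AT2-like cells could be compared, with 98 and 71 shallower cells left out. Cxcl5 was then seen in no control cell and in 2.66% of Cre cells (1.94 to 3.55). A floor of 3 counts puts the share of control cells seen with Cxcl5 at that depth at up to 0.226%. That figure is not an exact interval and sets no limit on the cells that express the gene. Before thinning the shares were 0.140% and 5.79%. For Cxcl3 the thinned shares were 0.150% and 1.39%, for Cxcl1 0.677% and 1.99%, and for Cxcl2 2.11% and 4.17%. Before thinning they were 1.47% and 6.89%, 4.41% and 7.82%, and 14.3% and 18.8%. B cell-like cells, which should lack these ligands, served as a background for free RNA, at median depths of 3054 and 1993 UMIs. Their thinned shares were 0.115% and 0.615% for Cxcl1, 2.52% and 3.42% for Cxcl2, 0% in both for Cxcl3, and 0% and 0.0683% for Cxcl5. The Cxcl2 share of control AT2-like cells was thus at or below the background and that of Cre ones near it, while the Cxcl3 and Cxcl5 shares of Cre AT2-like cells were above it. Cxcl15 was seen in 97.7% and 96.9% of thinned AT2-like cells. The background shares were 2.58% and 5.19%.

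Cxcl5 was concentrated in few cells. In the Cre library 100 of 1727 AT2-like cells held all 1246 UMIs, 68 of them with at least 2. The richest cell held 254 (20.4%), and without it the class stood at 71.6 CPM and the ratio at 321 (109 to 1558). The richest 1% of cells held 68.1% of the UMIs. The Cre cells with at least 2 Cxcl5 UMIs also held more of the other inducible ligands. Their Cxcl1 level was 208 CPM, against 12.2 in the 32 cells with 1 Cxcl5 UMI and 32.9 in the 1627 cells with none. Their Cxcl3 level was 156 CPM, against 21.3 and 9.60, and their Cxcl2 level 315 CPM, against 39.5 and 73.1. The first set thus stood above the others for all 3 ligands. The middle set had only 7 Cxcl3, 4 Cxcl1 and 13 Cxcl2 UMIs, and for Cxcl3 (8.55 to 43.8) and Cxcl1 (3.31 to 31.1) its interval overlapped that of the cells with none (7.98 to 11.5 and 29.8 to 36.2). Cxcl15 differed less, at 12368, 12882 and 9029 CPM. An acute-phase gene and an antimicrobial gene of the epithelium were high in the same cells: Saa3 stood at 199.5, 12.2 and 0.546 CPM and Lcn2 at 7577, 3163 and 1805 CPM. Tnfaip3, a feedback inhibitor of NF-kappaB, stood at 90.7, 63.8 and 39.3 CPM. Sftpc, the surfactant protein C gene of AT2 cells, went the other way, at 92103, 114118 and 160749 CPM. S100a8, a neutrophil transcript, stood at 127 CPM in the cells with at least 2 Cxcl5 UMIs and 32.5 in those with none, and Il1b at 94.9 and 26.3. Median depths were 10240, 10052 and 7769 UMIs. The split was made on Cxcl5 after its values were seen, and whether neutrophil RNA has a part in these levels was not tested. Saa3 and Lcn2 were also among the leading genes of the AT2-like cluster of 6 control and 6 Cre cells with neutrophil markers. How many of the 68 cells lie in that cluster was not counted. The main AT2-like cluster held 1202 of the 1246 Cxcl5 UMIs.

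**Figure D3:**
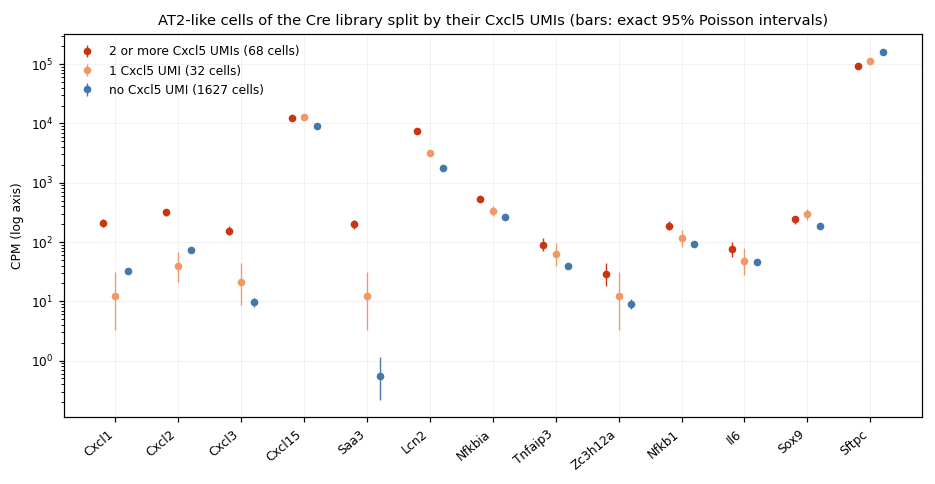
Levels (CPM, log axis) of the other ligands and of named epithelial and NF-kappaB-related genes in Cre AT2-like cells with at least 2 Cxcl5 UMIs (68 cells), with 1 (32 cells) and with none (1627 cells). Saa3 and Cxcl3 are highest in the first set and Sftpc is lowest there.

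At a matched depth of 1000 UMIs, 44 Cre AT2-like cells held Cxcl5 and 1612 did not. Cxcl1 was seen in 15.9% of the former (6.64 to 30.1) and 1.61% of the latter (1.06 to 2.35). Cxcl3 was seen in 15.9% and 0.993%, and Cxcl2 in 18.2% and 3.78%. The co-detection of these ligands was therefore present at equal depth too.

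The club-like class, secretory cells that line the airways, numbered 200 in control and 267 in Cre. Of 7 members measured, 3 (Cxcl1, Cxcl3, Cxcl5) were at least 2-fold higher in Cre and 1 (Cxcr2) at least 2-fold lower, beside 26.2% and 1.01% of all genes. Many of all genes thus passed the same mark in this class, whose median depth was 37916 UMIs in control and 22696 in Cre. Cxcl5 was already present in control club-like cells, at 12.8 CPM, and stood at 84.7 in Cre, 6.62-fold higher (5.24 to 8.45). Its UMIs were concentrated here too, with 34 of 84 in 1 control cell and 91 of 480 in 1 Cre cell. Cxcl1 stood at 14.2 and 42.0 CPM, 2.96-fold higher (2.32 to 3.81). Cxcl3 had 5 and 23 UMIs, 13 of the 23 in 1 cell. Cxcl2 stood at 102 and 150.0 CPM, 1.47-fold higher (1.33 to 1.63). That is below the median ratio of all genes in the class, 1.60, while the class's neutrophil markers stood at 909.5 and 275 CPM. Cxcr2 had 19 and 5 UMIs, or 2.89 and 0.882 CPM, where these markers correspond to 4.28 and 3.41 CPM at the neutrophil ratio. The part of neutrophil RNA in the Cxcr2 difference was not tested. Cxcl15 was lower in Cre, at 632 against 479.9 CPM, a ratio of 0.759 (0.723 to 0.797). Cxcl15 of club-like cells thus went the opposite way to that of AT2-like cells. In thinned cells Cxcl15 was seen in 40.1% of control and 25.4% of Cre club-like cells, and Cxcl5 in 2.08% and 5.74%.

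AT1-like cells, the flat gas-exchange cells, numbered 125 in control and 322 in Cre. Their Cxcl15 stood at 78.6 CPM in control and 564 in Cre, while the summed AT2 markers in them stood at 2997 and 12917 CPM. Whether AT2 RNA accounts for that difference was not tested. Their Cxcl2 was lower in Cre, at 48.4 against 233 CPM, as it was in ciliated-like cells, at 46.0 against 199.8 CPM. The summed neutrophil markers were lower in Cre too, at 89.2 against 1505 CPM in AT1-like and 451 against 985 CPM in ciliated-like cells. The part of neutrophil RNA in these Cxcl2 differences was not tested. Ciliated-like cells held 2 Cxcl5 UMIs in control and 22 in Cre, 15 of these in 1 cell.

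Cxcl15 was also read against Sftpc, class by class. Per 1000 Sftpc UMIs, AT2-like cells had 32.5 Cxcl15 UMIs in control and 59.5 in Cre. Over 11 immune and erythroid classes, which should express neither gene, the ratio ran from 13.3 to 36.2 in control (median 34.9) and from 61.0 to 96.9 in Cre (median 70.8). It was lowest in control in ILC2-like (13.3) and Treg-like cells (17.8) and highest in Cre in cDC2-like cells. Alveolar macrophage-like cells, not counted among the 11, stood at 29.8 and 53.1. Club-like cells stood apart with 283 and 730.2, and ciliated-like cells with 134 and 499. The medians of the 11 immune and erythroid classes were thus near the AT2-like value in control and above it in Cre, where each of the 11 classes was above it. Stromal and endothelial classes ran from 12.4 (lymphatic-like) to 42.0 (venous-like) in control and from 38.3 to 113 (venous-like) in Cre. In Cre adventitial fibroblast-like (38.3), alveolar fibroblast-like (47.0) and mesothelial-like cells (52.2) were below the AT2-like value.

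Alveolar macrophage-like cells, the resident phagocytes of the airspace, numbered 537 in control and 1075 in Cre. Of 7 members measured, 3 (Cxcl3, Cxcl5, Cxcl15) were at least 2-fold higher in Cre and 1 (Csf3r) at least 2-fold lower, beside 5.73% and 3.38% of all genes. Cxcl3 stood at 45.8 CPM in control and 137 in Cre, 3.0-fold higher (2.61 to 3.46). Cxcl1 stood at 223 and 329 CPM, 1.47-fold higher (1.38 to 1.58). Cxcl2 was close in the libraries, at 4026 and 3657 CPM, a ratio of 0.908 (0.893 to 0.924). Cxcl1 and Cxcl3 of these cells thus differed in the same direction as in AT2-like cells, and Cxcl2 did not. In thinned cells the shares were 15.4% and 20.1% for Cxcl1, 3.99% and 8.60% for Cxcl3, and 81.7% and 78.1% for Cxcl2. Cxcl5 had 0 UMIs in control and 87 in Cre, at least 14.4-fold higher against a floor of 3 counts for the class, with an exact lower limit of 11.5 for the ratio. Of these 87 UMIs, 83 lay in a cluster of dividing cells led by Birc5, Mki67 and Top2a, with 53 control and 94 Cre cells, and 4 in the main cluster. The 87 UMIs sat in 8 cells whose summed AT2 markers stood at 35439.7 CPM, against 5703 in the rest of the class. With classes assigned cell by cell, with the libraries clustered separately, with stricter cell filters or with doublets kept, myeloid classes held 0.832%, 0.936%, 0.797% and 0.876% of Cre Cxcl5 UMIs, against 5.20% in the main assignment. The myeloid share of Cre Cxcl5 thus depends on the processing. The dividing cells were not followed through these alternatives. The same cluster held most of the gap in Cxcl15, at 410.5 CPM in control and 1742 in Cre. In the main cluster Cxcl15 stood at 21.1 and 69.6 CPM, near the 27.2 and 63.9 CPM of B cell-like cells. Csf3r stood at 37.3 and 13.6 CPM, where the neutrophil markers of the class correspond to 16.8 and 35.1 CPM at the neutrophil ratio. Cxcr2 stood at 11.6 and 6.54 CPM, where they correspond to 7.20 and 17.1 CPM. The part of neutrophil RNA in these receptor levels was not tested.

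Interstitial macrophage-like cells numbered 238 in control and 465 in Cre. Of 6 members measured, none was at least 2-fold higher in Cre and 1 (Cxcr2) was at least 2-fold lower, beside 6.50% and 1.83% of all genes. Cxcr2 stood at 15.8 and 7.41 CPM, where the neutrophil markers of the class correspond to 10.5 and 5.78 CPM at the neutrophil ratio. The part of neutrophil RNA was not tested. Interstitial macrophage-like cells had the highest Cxcl1 level of the 25 classes in control, 723 CPM, against 390.1 in Cre, a ratio of 0.539 (0.494 to 0.589). Among these classes their Cxcl2 level was second to neutrophil-like cells, at 8647 CPM in control and 5577 in Cre. Both of these ligands were thus lower in Cre interstitial macrophage-like cells. Cxcl3 stood at 31.1 and 45.9 CPM, a ratio of 1.47 (1.05 to 2.09). The class held a main cluster (224 and 452 cells) and a small one led by Prg4 and Alox15 (14 and 13 cells). In the main cluster Cxcl1 stood at 519.8 and 364 CPM, a ratio of 0.700 (0.633 to 0.773), from 830 of 1278 control UMIs. That control level was not above the 540 CPM of adventitial fibroblast-like cells, so the first rank rests on the small cluster. In the main cluster the Cxcl3 ratio was 1.34, with an interval that includes 1 (0.941 to 1.92). A class of macrophages marked by Spp1 and Arg1 was present in the Cre library alone, with 387 cells, and may stand for that library and not for a type of cell. It held 166 CPM of Cxcl1, 787 of Cxcl2, 24.9 of Cxcl3 and 0.565 of Cxcl5.

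Monocyte-like cells, the blood-borne precursors of macrophages, had less Cxcl2 in Cre. In classical monocyte-like cells (393 and 342 cells) none of 5 members measured was at least 2-fold higher and 2 (Cxcl1, Cxcl2) were at least 2-fold lower, beside 5.50% and 1.49% of all genes. Their Cxcl2 stood at 3824 CPM in control and 923 in Cre, a ratio of 0.242 (0.229 to 0.254). In thinned cells 67.4% and 28.2% held Cxcl2. Cxcl1 stood at 44.8 and 17.1 CPM in these cells. In nonclassical monocyte-like cells (491 and 463 cells) 1 of 6 members (Cxcl15) was at least 2-fold higher and 3 (Cxcl1, Cxcl2, Cxcl3) at least 2-fold lower, beside 5.37% and 2.14% of all genes. There Cxcl2 stood at 3134 and 849 CPM, a ratio of 0.271 (0.255 to 0.288). The class held a main cluster (444 and 443 cells) and a small one (47 and 20 cells) with summed neutrophil markers at 51838 and 28765 CPM, against 522 and 214 in the main one. In the main cluster Cxcl2 stood at 2283 and 487 CPM, a ratio of 0.213 (0.196 to 0.231). Cxcl3 had only 3 and 4 UMIs there, so its lower level in the class rests on 26 control UMIs in the small cluster. Both monocyte classes thus held much less Cxcl2 in Cre. Neutrophil RNA was measured beside these values. The summed neutrophil markers stood at 530.2 CPM in control and 142 in Cre classical monocyte-like cells, and at 8178 and 2242 CPM in nonclassical ones. At the ratio of Cxcl2 to those markers seen in neutrophil-like cells, these sums amount to 42.5 of 3824 CPM in control and 15.2 of 923 CPM in Cre for classical monocyte-like cells. For nonclassical monocyte-like cells they amount to 655 of 3134 and 240.0 of 849 CPM of Cxcl2, and to 10.2 of 11.5 and 3.13 of 5.53 CPM of Cxcl3. The part of neutrophil RNA in the difference between the libraries was not tested.

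Neutrophil-like cells numbered 1938 in control and 1106 in Cre, with median depths of 2570.5 and 1506 UMIs. Of 7 members measured, none was at least 2-fold higher and 1 (Csf3) at least 2-fold lower, beside 13.3% and 1.86% of all genes. They held the highest level of Cxcl2 of any class in both libraries, at 14946 CPM in control and 10533 in Cre, a ratio of 0.705 (0.694 to 0.716). Cxcl3 stood at 233 and 137 CPM, a ratio of 0.589 (0.513 to 0.675). Cxcl1 was low in them, at 24.9 and 33.1 CPM, a ratio of 1.33 (0.967 to 1.81). Neutrophil-like cells thus had less Cxcl2 and Cxcl3 in the Cre library, while the interval for Cxcl1 includes 1. In thinned cells (1908 and 987, with 30 and 119 left out) 94.4% and 87.7% held Cxcl2 and 11.1% and 7.19% held Cxcl3.

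The receptors were highest in neutrophil-like cells. Cxcr2 stood at 878 CPM in control and 1221 in Cre, a ratio of 1.39 (1.32 to 1.46). Csf3r stood at 2047 and 2507 CPM, a ratio of 1.22 (1.18 to 1.27). The median ratio of genes with at least 50 UMIs in the class was 1.27, and relative to it Cxcr2 was 1.10 and Csf3r 0.966, so the direction of Csf3r flips with that scaling. The share of cells with Cxcr2 was 85.4% and 79.7% before thinning and 57.4% and 68.2% after thinning, and for Csf3r 97.7% and 95.7% against 86.0% and 88.2%. The 2 receptors were often seen in the same cell. At equal depth Cxcr2 was seen in 59.0% of control and 69.9% of Cre neutrophil-like cells with Csf3r, and in 48.1% and 55.2% of those without. Among the 25 classes nonclassical monocyte-like cells came next for both receptors, though for Cxcr2 in Cre their interval overlapped that of erythroid-like cells (28.6 CPM). Their Cxcr2 stood at 47.2 and 29 CPM, and their neutrophil markers correspond to 38.5 and 27.8 CPM at the neutrophil ratio. Few cells carried it: the small cluster of that class held 116 Cxcr2 UMIs in control and 39 in Cre, and the main cluster 3 and 3. Their Csf3r stood at 182 and 169 CPM, with 89.8 and 57.1 CPM corresponding in that way. In the main cluster alone it stood at 73.2 and 108 CPM, 1.48-fold higher in Cre (1.17 to 1.86), the opposite direction to the class. Classical monocyte-like cells held 101 and 122 CPM of Csf3r, with 5.82 and 3.62 CPM corresponding. Whether neutrophil RNA gave rise to these levels was not tested.

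Neutrophil-like cells fell into a main cluster (1760 control and 1052 Cre cells) and a smaller one led by Ngp, Camp and Ltf, granule genes of immature neutrophils (178 and 54 cells). The smaller cluster was 9.18% of neutrophil-like cells in control and 4.88% in Cre. In the main cluster Cxcl2 stood at 17512 CPM in control and 11619.7 in Cre, Cxcr2 at 966 and 1304, and Csf3r at 2403 and 2741. In the cluster led by Ngp, Cxcl2 stood at 4038 and 1474 CPM, Cxcr2 at 503 and 536, and Csf3r at 536 and 557. Both clusters thus had less Cxcl2 in the Cre library, and both receptors were lower in the cluster led by Ngp than in the main one. Il1b, which codes for the cytokine interleukin 1 beta, was alike in the main clusters, at 19387 and 18839 CPM.

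**Figure D4:**
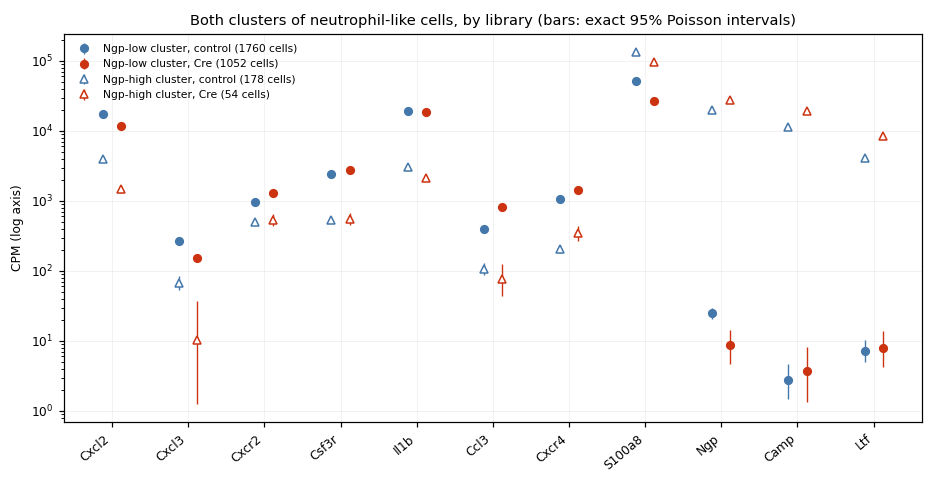
Levels (CPM, log axis) of 4 member genes and 7 other neutrophil genes in the main neutrophil-like cluster (circles) and in the cluster led by Ngp (triangles), control in blue and Cre in red, with exact 95% Poisson bars. Cxcl2, Cxcr2 and Csf3r are lower in the cluster led by Ngp in both libraries.

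Csf3 was scarce in all classes. Neutrophil-like cells had 69 UMIs in 32 cells in control and 4 UMIs in 4 cells in Cre, or 11.9 and 2.21 CPM, a ratio of 0.185 (0.0490 to 0.495). Classical monocyte-like cells had 44 UMIs in 21 cells and 19 UMIs in 7 cells, or 14.7 and 10.8 CPM. Myeloid classes held 93.9% of Csf3 UMIs in control (88.8 to 97.2) and 66.7% in Cre (52.5 to 78.9). Epithelial classes held 1 UMI in control and 5 in Cre. At these counts no difference in epithelial Csf3 was detectable.

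The stroma was a large source of Cxcl1. Alveolar fibroblast-like cells, the supporting cells of the alveolar wall, numbered 842 in control and 1415 in Cre. Of 5 members measured, 1 (Cxcl1) was at least 2-fold higher and 1 (Csf3r) at least 2-fold lower, beside 5.75% and 3.92% of all genes. Cxcl1 stood at 69.2 CPM in control and 327 in Cre, 4.73-fold higher (4.01 to 5.61). The class held a shallow and a deep cluster, with the shallow one in the majority in control (516 of its cells against 326) and the deep one in Cre (799 against 616). Within the shallow cluster Cxcl1 stood at 18.2 and 54.7 CPM, 3.01-fold higher (1.40 to 7.19). Within the deep cluster it stood at 83.6 and 358 CPM, 4.29-fold higher (3.62 to 5.11). The difference was thus present in both clusters. Mesothelial-like cells stood at 131 and 539 CPM of Cxcl1, 4.13-fold higher in Cre (3.67 to 4.65). Adventitial fibroblast-like cells stood at 540 and 612 CPM, and smooth muscle-like cells at 375 and 314 CPM. Cxcl1 was thus several-fold higher in Cre in alveolar fibroblast-like and mesothelial-like cells, and closer between the libraries in the other stromal classes. Cxcl2 of alveolar fibroblast-like cells stood at 224 and 130.4 CPM, and their neutrophil markers (2803 and 1145 CPM) alone correspond to 225 and 123 CPM. Their Csf3r stood at 28.6 and 8.88 CPM, where the markers correspond to 30.8 and 29.2 CPM. Their Cxcr2 stood at 6.25 and 3.26 CPM, where the markers correspond to 13.2 and 14.2 CPM. For both receptors the correspondence thus exceeds the measured level, most in Cre. The part of neutrophil RNA in these levels was not tested.

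Type 2 innate lymphoid-like cells (ILC2), which numbered 132 in control and 406 in Cre, were the lymphoid class with most Cxcl2. Their Cxcl2 stood at 2543 and 2235 CPM, a ratio of 0.879 (0.828 to 0.933), which became 2.51 when the libraries were clustered separately. Their Cxcl3 stood at 22.1 and 77.4 CPM, 3.5-fold higher in Cre (2.0 to 6.60), and their Cxcl1 at 167 and 88.6 CPM.

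**Figure D5:**
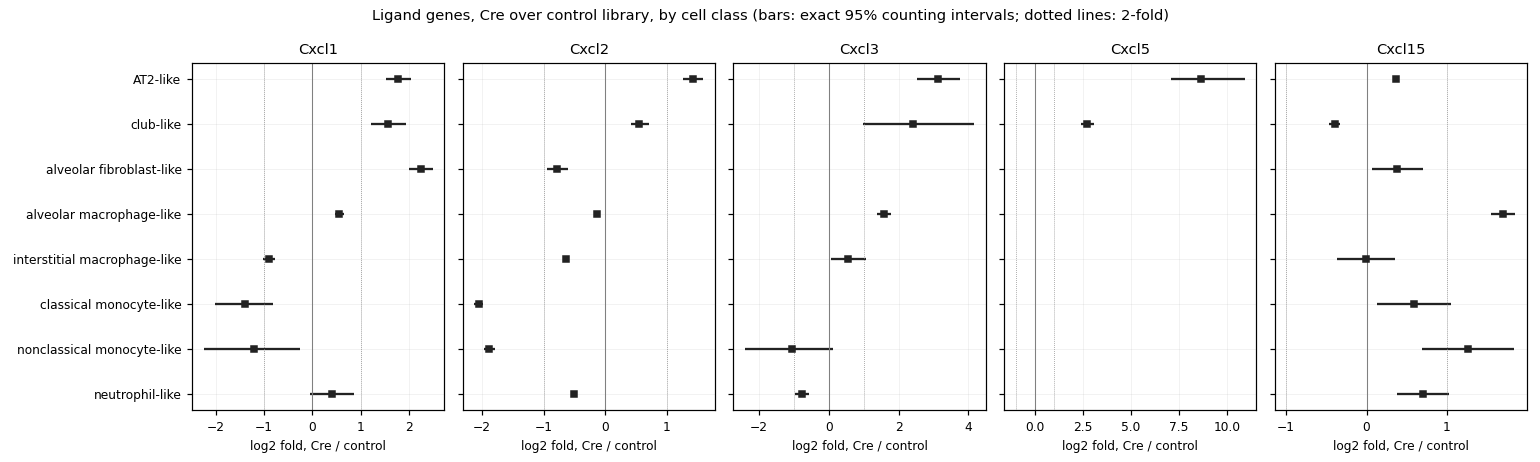
Log2 ratio of Cre to control for the 5 CXC ligands in 8 cell classes, with exact 95% intervals, where a gene had at least 20 UMIs and was present in control; dotted lines mark 2-fold. Cxcl1 and Cxcl3 lie above 0 in AT2-like, club-like and alveolar macrophage-like cells, and Cxcl2 lies below 0 in both monocyte classes.

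The order of the levels by class differed between the libraries for the inducible ligands. For Cxcl1 in control the order was interstitial macrophage-like, adventitial fibroblast-like, smooth muscle-like and alveolar macrophage-like cells, with no overlap of intervals between neighbours. The main interstitial macrophage-like cluster alone stood at 519.8 CPM, not above the 540 CPM of adventitial fibroblast-like cells. In Cre the Cxcl1 order was adventitial fibroblast-like, mesothelial-like and interstitial macrophage-like cells. Alveolar macrophage-like, alveolar fibroblast-like and smooth muscle-like cells followed, and their intervals overlapped their neighbours'. For Cxcl3 neutrophil-like cells led in control, and in Cre neutrophil-like and alveolar macrophage-like cells were not apart, both at 137 CPM. AT2-like cells ranked below ILC2-like and interstitial macrophage-like cells there. For Cxcl5 control smooth muscle-like (15.9 CPM, from only 9 UMIs) and club-like cells (12.8 CPM) were not apart. Smooth muscle-like cells had 0 Cxcl5 UMIs in Cre. In Cre the AT2-like and club-like classes were not apart either, and ciliated-like cells followed at 18.4 CPM. Cxcl15 was led by AT2-like cells and both receptors by neutrophil-like cells in each library.

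The genes whose log levels followed each member most closely over 50 points (25 classes in each of the 2 libraries) were named as a description, since points of one library have their depth and free RNA in common. For Cxcl2 they were Nlrp3 (r = 0.870), Lilrb4a and Ccrl2 (both 0.866). For Cxcl3 they were Alox5 (0.826), P2ry13 (0.787) and Clec5a (0.747), and for Cxcl1 C4b (0.785), Igf1 (0.782) and Maff (0.757). Cxcl15 was closest to the surfactant protein genes Sftpd (0.974), Sftpb (0.969) and Sftpa1 (0.958). Cxcl5 was closest to Ccl20, Ovol1 and Pigr (each 0.804). Cxcr2 was closest to Il1f9 (0.954), Mrgpra2b (0.945) and AC110211.1 (0.941), Csf3 to Slc11a1 (0.646), Ethe1 (0.637) and Tgfbi (0.629), and Csf3r to Clec4d (0.957), Acod1 (0.953) and Trem1 (0.95).

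Other genes of the pathway were read from lists, each count beside the share of all genes past the same 2-fold mark. Of the inducers and regulators of these chemokines (25 of 27 listed), 21 were measured in AT2-like cells. Of these, 6 (Il1a, Il6, Nfkbia, Tnfaip3, Bcl3, Cebpd) were at least 2-fold higher in Cre and none was 2-fold lower, beside 7.53% and 2.63% of all genes, with a median log2 ratio of 0.62 against 0.15 over all genes. The most abundant of the list there were Zfp36, Cebpd, Nfkbia and Cebpb, of which Zfp36 and Cebpb did not pass 2-fold. Il6, which codes for a cytokine that induces acute-phase genes, stood at 2.83 CPM in control and 47.8 in Cre, 16.9-fold higher (12.2 to 24.1). Nfkbia, the gene of the NF-kappaB inhibitor, stood at 122 and 281 CPM, and Tnfaip3 at 12.7 and 42.5 CPM. In club-like cells 10 of 21 were at least 2-fold higher and none lower, beside 26.2% and 1.01% of all genes, with a median of 0.70 against 0.42. In alveolar macrophage-like cells 3 of 20 (Il1b, Il6, Bcl3) were higher and none lower, beside 5.73% and 3.38%, and Il1b stood at 519 and 1786 CPM. In classical monocyte-like cells 3 of 19 (Il1b, Tnf, Nfkbia) were at least 2-fold lower and none higher, beside 1.49% and 5.50% of all genes, and 16 did not pass. In nonclassical ones 7 of 19 were lower and none higher, beside 2.14% and 5.37%. Il1b stood at 4505 and 2072 CPM in classical monocyte-like cells. In neutrophil-like cells none of 18 passed 2-fold in either direction (13.3% and 1.86% of all genes did), and in interstitial macrophage-like cells none of 19 (6.50% and 1.83%). In alveolar fibroblast-like cells 6 of 21 were higher and 1 lower, beside 5.75% and 3.92%, with Il6 at 63.4 and 360.0 CPM.

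Among other neutrophil attractants (12 of 13 listed), 3 of 10 measured in AT2-like cells were at least 2-fold higher (Cxcl12, Ccl3, C3) and 2 lower (S100a8, S100a9), where 7.53% and 2.63% of all genes were. C3, the central complement gene, stood at 102 and 359 CPM. In neutrophil-like cells Pf4 and Ccl3 were higher of 11 measured and none was lower, beside 13.3% and 1.86%, with Ccl3 at 339 and 741 CPM. Among other chemoattractant and neutrophil receptors, 4 of 10 (Ccrl2, Fpr1, Il1r2, Trem1) were at least 2-fold lower in classical monocyte-like cells, beside 1.49% of all genes. None was higher there (5.50% of all genes), and none of 11 passed 2-fold in neutrophil-like cells (13.3% and 1.86%). Of the colony-stimulating factor genes other than Csf3 and their receptors, none of 5 to 7 measured passed 2-fold in any of the 8 classes described. Over these classes 5.37% to 26.2% of all genes passed it towards Cre and 1.01% to 3.92% towards control. Of the adhesion genes, which let leukocytes leave vessels, 1 of 9 (Vcam1) was at least 2-fold higher in AT2-like cells, beside 7.53% of all genes. In club-like cells 1 of 9 (Icam1) was, beside 26.2%. Vcam1 was also higher in neutrophil-like cells, as 1 of 10 measured beside 13.3% of all genes. Icam2 was lower in interstitial macrophage-like cells (1 of 10, beside 1.83%) and alveolar fibroblast-like cells (1 of 9, beside 3.92%). No other adhesion gene passed 2-fold in the 8 classes. Genes that tissue dissociation induces were read beside these lists. In AT2-like cells 3 of 18 (Hspa1a, Hspa1b, Hspa8) were at least 2-fold higher in Cre and none lower, beside 7.53% and 2.63% of all genes. The list's median log2 ratio was 0.71 there, against 0.15 over all genes. In club-like cells 4 of 18 (Btg2, Hspa1b, Hsp90aa1, Hspa8) were higher and none lower, beside 26.2% of all genes, with a median of 0.68 against 0.42. In alveolar macrophage-like cells 3 of 18 (Fos, Fosb, Dusp1) were at least 2-fold lower and none higher, beside 3.38% of all genes, with a median of -0.52 against -0.06. Their part in the ligand differences was not tested.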

How the data were processed

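The 2 10x Genomics 3' libraries of total lung cells were analysed, each from 3 pooled mice. The deposited matrices hold UMI counts per gene and cell barcode; per the submitters' processing notes they were made with Cell Ranger 3.1.0 and STAR on mm10. Only counts were used, as deposited: 13587 control and 16821 Cre barcodes with 74219499 and 81598779 UMIs. Cells needed at least 200 genes and 500 UMIs and at most 20% mitochondrial UMIs. Doublets were called with Scrublet at an assumed rate of 0.06 and removed (394 and 435 cells). The libraries had 58 cell barcodes in common.

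Counts were scaled to 10000 per cell and clustered with scanpy 1.11.5 and leidenalg 0.10.2 (2000 variable genes, 30 principal components, 15 neighbours, resolution 1.0) into 53 clusters. Clusters were named from lists of marker genes for 34 classes, and 0.489% of control cells and 2.05% of Cre cells stayed unnamed. UMIs were summed per class and library and divided by the class total (CPM). Levels carry exact Poisson, ratios exact conditional and shares Clopper-Pearson intervals. A gene counted as measured in a class with at least 20 UMIs over both libraries, and as higher or lower at 2-fold. The ratio script was tested on simulated counts.

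Genes are named by these rules: all 8 members, in each class and list those at or beyond 2-fold where fewer than 5 are and otherwise the most abundant, and the 3 genes most like each member among those with at least 200 UMIs (Pearson's r of log2 of CPM plus 5). Stk11 was named as the targeted gene. Genes outside the rules were named after their values were seen. They are Saa3, Lcn2, Ccl20, Sftpc, Sox9, Il6, Tnfaip3, Il1b, S100a8 and the leading genes of clusters. The 6 regulators past 2-fold in AT2-like cells were also all named, where the rule gives the most abundant ones. The members, lists and markers were chosen with earlier results of these data known, and the list of dissociation genes was added after the data were seen. Alternatives were cell-by-cell classes, separate clustering, resolution 0.5, stricter filters (500 genes, 1000 UMIs, 10% mitochondrial), doublets kept, thinning to 1000 UMIs, subtraction of the B cell-like level, other scalings and no minimum count.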

Additional observations from a re-analysis of the deposited data

Results flagged for a closer look

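For the genes named here the ratio of Cre to control lay on opposite sides of 1 in different cell classes, with both counting intervals excluding 1. How many of all genes meet the same rule was not counted, so it cannot be read as a trait of the members. The difference between classes was not tested, since each genotype had 1 library. Cxcl1 was 4.73-fold higher in alveolar fibroblast-like cells (4.01 to 5.61) and at 0.382 of control in classical monocyte-like cells (0.248 to 0.572), which are 12.4-fold apart. Cxcl2 was 2.69-fold higher in AT2-like cells and at 0.242 of control in classical monocyte-like cells, 11.1-fold apart, but the first of these directions is lost with doublets kept. Cxcl3 was 8.69-fold higher in AT2-like cells (5.82 to 13.5) and at 0.589 in neutrophil-like cells (0.513 to 0.675), 14.8-fold apart.

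Cxcl15 was 3.24-fold higher in alveolar macrophage-like cells (2.92 to 3.61) and at 0.759 in club-like cells (0.723 to 0.797), 4.27-fold apart, with most of the former in the dividing cluster described above. Cxcr2 stood at 1.39 in neutrophil-like and 0.563 in alveolar macrophage-like cells (0.392 to 0.811), 2.47-fold apart. Csf3r stood at 1.22 in neutrophil-like and 0.363 in alveolar macrophage-like cells (0.290 to 0.454), 3.36-fold apart, and the neutrophil value falls below 1 relative to the median gene of its class. In Cre alveolar macrophage-like cells the neutrophil markers correspond to 17.1 CPM of Cxcr2 and 35.1 of Csf3r, above the measured 6.54 and 13.6. In control they correspond to 7.20 and 16.8 CPM, below the measured 11.6 and 37.3. The part of neutrophil RNA was not tested.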

How the results depend on the processing

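No paired analysis was possible because there was 1 library per genotype, and no library could be left out. Of 190 alternative values for 24 ratios, 133 moved by less than their counting interval, 54 moved by more with no change of direction and 3 reversed. The reversed ratios were Csf3r in neutrophil-like cells relative to the median gene (0.966), Cxcl2 in AT2-like cells with doublets kept (0.943) and Cxcl2 in ILC2-like cells with the libraries clustered separately (2.51). The cause was not tested.

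Thinning to 1000 UMIs per cell gave ratios of 1.37 for Cxcl1 and 2.33 for Cxcl3 in alveolar macrophage-like cells and 1.31 for Cxcl15 in AT2-like cells. In neutrophil-like cells it gave 0.683 for Cxcl2, 1.16 for Csf3r and 0 for Csf3. Separate clustering gave 0.681 for Cxcl2, 1.27 for Cxcl15 and 1.17 for Csf3r in the same classes. Resolution 0.5 gave 0.690 for Cxcl2, and cell-by-cell classes 1.30 for Cxcl15. Relative to the median gene, Cxcl2 stood at 0.556, Cxcl15 at 1.09 and Cxcr2 at 1.10. Thinned ratios of Cxcl5 in AT2-like and Cxcl1 in club-like cells had no control UMI, and Cxcl2 of classical monocyte-like cells had no value at resolution 0.5, where the class merged with another. The Cxcl5 ratio without the richest cell (321) was chosen after seeing the data.

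Epithelial shares are given for control and then Cre. For Cxcl1 they were 2.95% and 4.81% thinned and 2.64% and 3.30% as a mean of CPM over classes, and 6.36% in Cre after subtraction of the B cell-like level. For Cxcl2 they were 1.30% and 2.95% cell by cell, 2.03% and 3.44% with doublets, 0.265% and 0.895% thinned, 0.634% and 1.68% after subtraction, and 1.40% and 1.20% as a mean of CPM. The last of these reverses the order of the libraries. Cxcl2 in Cre was 2.69% with separate clustering and 2.68% with strict filters. For Cxcl3 they were 0.363% and 7.44% thinned and 3.15% and 4.0% as a mean of CPM. For Cxcl5 they were 66.7% and 84.8% thinned and 44.5% and 83.5% as a mean of CPM. In Cre they were 95.4% cell by cell, 95.1% with separate clustering, 95.6% with strict filters and 92.6% after subtraction. For Cxcl15 they were 97.7% and 94.5% cell by cell, 94.8% and 92.7% with separate clustering, and 96.2% and 93.5% with strict filters. They were 90.4% and 88.1% with doublets, 95.3% and 92.7% after subtraction, and 83.3% and 74.8% as a mean of CPM. Thinned, Cre Cxcl15 was 91.2%. Neutrophil-like cells were 18.8% and 8.56% with strict filters, 14.7% and 7.08% with doublets, 27.1% and 13.8% of immune cells, and 7.07% in Cre cell by cell.

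With no minimum beyond 1 UMI, more genes passed 2-fold, higher and then lower. The counts were 2864 and 1715 in AT2-like cells (925 and 323 with the minimum), 5315 and 1281 in club-like (2739 and 106), and 2879 and 1741 in alveolar macrophage-like (653 and 385). They were 2704 and 1592 in interstitial macrophage-like (593 and 167), 2241 and 1719 in classical monocyte-like (468 and 127), and 2492 and 1776 in nonclassical monocyte-like cells (449 and 179). They were 3861 and 2246 in neutrophil-like (1108 and 155) and 2705 and 2031 in alveolar fibroblast-like cells (640.0 and 437).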

Other observations

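Basophil and mast cell-like cells (15 in control, 28 in Cre) held 11391 and 5602 CPM of Cxcl2, 456 and 388 of Cxcr2 and 1071 and 857 of Csf3r, while their summed neutrophil markers stood at 73383 and 37115 CPM. Cre AT2-like cells with a Sox9 UMI (789 cells) stood at 105 CPM of Cxcl5, 23.0 of Cxcl3 and 34.2 of Cxcl1, and those without (938 cells) at 74.5, 11.7 and 49.0. In the Cre cells with at least 2 Cxcl5 UMIs, Ccl20, a chemokine gene of mucosal epithelium, stood at 65.6 CPM, against 5.07 in those with none.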
